A study of Mus musculus with 11 samples.

Results

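RNA pulled down on tagged ribosomes from mice that self-administered saline was compared with the total RNA of the same treatment group before the pull-down. The comparison takes each of the 3 saline immunopurified (IP) libraries over the 1 saline input library, gene by gene, for all 32531 genes in the count files. These are 4 of the 11 libraries of the series; the other 7 are 3 IP libraries from cocaine self-administration, 3 from yoked controls and 1 unbound library from the cocaine group. All animals were adult mice of the Glt25d2-TRAP DU9 line, which carries Glt25d2-EGFP/Rpl10a, studied under short-access intravenous self-administration. Both fractions therefore came from transgenic mice, and no tag-free library was analysed here. The labels give cerebral cortex as tissue, ribosome-bound RNA as the molecule of the IP libraries and total RNA as that of the input, whereas the extraction text speaks of dissected striatum. The sources used here do not give the sex of the animals or whether a replicate is 1 animal or a pool, so the spread between libraries may be partly technical. The 3 saline IP libraries ran on lane 6 and the input on lane 7, so the effects of fraction and of lane cannot be told apart. IP libraries with the same replicate number carried the same index sequence in every treatment group, and the input carried that of replicate 3. The effects of replicate number and of index cannot be told apart either.

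In translating ribosome affinity purification (TRAP), 1 cell type makes the ribosomal protein L10a fused to green fluorescent protein, and antibodies to that tag recover its ribosomes with the messenger RNA they are reading. In the DU9 line the regulatory DNA of Glt25d2, now called Colgalt2, directs the tag to pyramidal neurons of cortical layer 5. Many of these neurons are of the pyramidal tract type, which send axons to the striatum, brainstem and spinal cord and are specified by the transcription factors Fezf2 and Bcl11b (CTIP2). The input holds RNA of every cell in the piece of tissue, including nuclear RNA that is never on ribosomes. A log2 ratio above 0 means that, after the scaling given below, a gene had a higher relative level in IP than in the input. Ratios near 0 can change sign with the scaling. Fewer cells of a type cannot be told apart from less RNA per cell.

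The saline IP libraries held 53862653, 37812193 and 38846452 gene counts in replicates 1, 2 and 3, the order used for all triplets of values below, and the input held 39901884. Reads outside annotated genes made up 7.29%, 14.4% and 13.4% of all entries in the IP libraries and 13.3% in the input. Levels are CPM, counts relative to the library size after scaling by trimmed mean of M values (TMM), and ratios were taken with a prior count of 2. A mean of at least 1 CPM over the 4 libraries was met by 13478 genes. All 3 ratios share 1 input library, so an error in the input moves them all the same way, and the standard deviation (SD) over the 3 IP libraries does not contain it. Excitatory neuron genes of the cortex were present in the input, with the forebrain kinase Camk2a at 2104.6 CPM and the transcription factor Neurod2 at 123.5 CPM. Genes of striatal projection neurons were present as well, with the dopamine receptor Drd1 at 21.5 CPM, Drd2 at 5.47 CPM and the signalling regulator Rgs9 at 84.2 CPM.

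The 3 IP libraries lay at very different distances from the input. Replicate 1 departed widely, with an SD of the log2 ratio over genes of 0.83, while replicates 2 and 3 each had an SD of 0.29. In replicate 1, 39.3% of genes were within 1.25-fold of the input, against 80.6% in replicate 2 and 82.0% in replicate 3. At least 2-fold above the input were 371 genes (2.75% of those measured) in replicate 1, 62 (0.46%) in replicate 2 and 69 (0.512%) in replicate 3. At least 2-fold below it were 1520 (11.3%), 35 (0.26%) and 85 (0.631%). Among the 8709 genes that averaged 10 CPM or more, the counts above were 168, 4 and 0 and those below 677, 1 and 5. The other IP libraries, set over the same input, had SDs of 1.03, 0.17 and 0.32 for cocaine and 0.72, 0.25 and 0.34 for yoked animals in their replicates 1, 2 and 3.

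**Figure D1:**
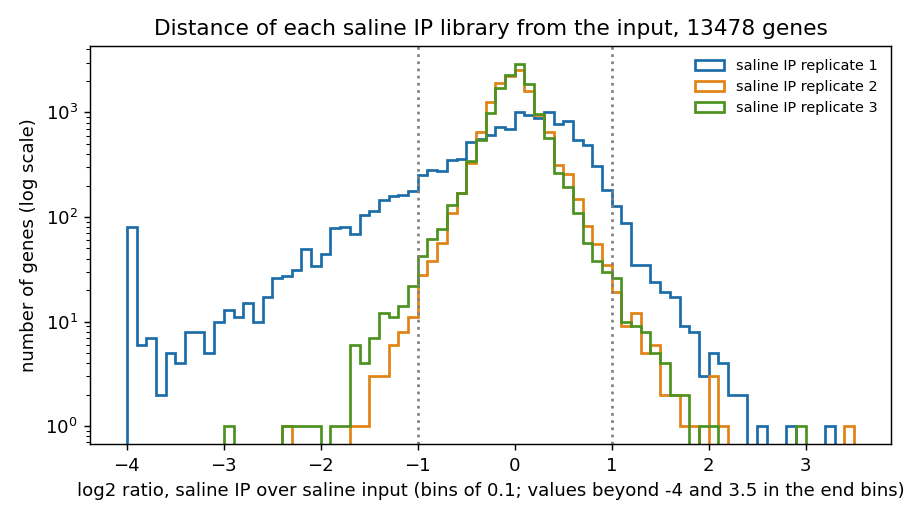
Number of genes (log scale) by log2 ratio of each saline IP library over the saline input, for 13478 genes in bins of 0.1; dotted lines mark 2-fold. Replicate 1 is broad with a long lower tail, whereas replicates 2 and 3 are narrow and nearly coincide.

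Few genes were far from the input in all 3 libraries. Only 10 genes were at least 2-fold above it in each (0.0742% of 13478) and 6 at least 2-fold below it in each (0.0445%). All but 1 had a mean under 10 CPM. On the upper side were the transcription factor genes Gata2 and Tfap2d, the liver-type glycogen phosphorylase Pygl, the retinol dehydrogenase family member Rdh9, the replication fork protein Mms22l, the protease Tll1, Fam72a, Tigd5 and the models AK018214 and Gm11974. Rdh9 stood at 1.13, 1.39 and 2.50 CPM against 0.291 CPM in the input, which is 12 counts there. Tll1 stood at 3.27, 2.33 and 2.26 CPM against 1.02 CPM. On the lower side were the Notch ligand Dll1, the immune cell signalling protein Dock8, the kinase Lrrk1 and the models AK086087, AK140265 and BC035532. Dock8 stood at 0.269, 1.41 and 0.676 CPM against 3.03 CPM in the input, and Dll1 at 0.750, 0.838 and 0.832 CPM against 1.79 CPM. For all 16 genes the 95% counting intervals of the log2 ratio (exact binomial, which cover counting error only) excluded 0 in each library. The genes were chosen by these same counts, and the intervals of a gene share 1 input count, so this is a description and not separate support.

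The 1 abundant gene of the 16 was AK140265, a transcript model without an established name. It was at 154.4, 328.4 and 364.7 CPM in IP and at 1640.8 CPM in the input, so all 3 IP libraries were far below, with log2 ratios of −3.41, −2.32 and −2.17 (mean −2.63 ± 0.68, SD, n = 3).

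In edgeR's quasi-likelihood test, fitted to the 11 libraries so that replicated groups supply the spread, no gene out of 18070 passed an adjusted p of 0.05 in either direction (0% called). At an unadjusted p under 0.05 there were 53 genes above and 53 below the input, and DESeq2 called 0 in both directions, with 99 and 50 at that unadjusted p. With the replicate number as a block, edgeR called 1 gene higher (0.00553%) and 24 lower (0.133%). The block takes out differences that same-numbered IP libraries share, so its SEs and p-values do not contain that spread. The higher gene was the ubiquitin ligase gene Ubr3, at 4105.6, 529.5 and 460.1 CPM against 419.8 CPM, so that replicate 1 carries most of it (log2 fold change 1.25 ± 0.24 SE, edgeR adjusted p = 0.0446). AK140265 had a blocked log2 fold change of −2.64 ± 0.19 (SE, edgeR adjusted p = 1.9e-06). Among the other called genes were the astrocyte-rich gene Fam107a, at 42.7, 192.5 and 166.7 CPM against 238.4 CPM, the myelin gene Mobp, and the noncoding RNAs Neat1, Meg3 and Miat. Meg3 was at 72.6 CPM in replicate 1 and at 910.7 and 979.6 CPM in replicates 2 and 3, which lay slightly above the 891.9 CPM of the input.

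In all 3 IP libraries, 2553 genes were above the input by any amount (18.9%) and 2372 below it (17.6%), a share of 51.8% above. With library totals in place of TMM these numbers were 1700 and 3390, a share of 33.4% above. These shares are the background for the counts of list members below. Leaving out replicate 1, 32.9% of genes were above and 32.8% below the input in both other libraries.

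Genes of layer 5 pyramidal tract neurons were above the input in replicate 1, moderately so in replicate 3, and as a group not in replicate 2. Their median log2 ratios were 1.04, −0.02 and 0.26, against 0.06, −0.01 and 0.01 over all genes. Of 14 members, 6 were above the input in all 3 libraries (42.9%, against 18.9% of all genes). Below in all 3 was 1 (7.14%, against 17.6%), and none passed edgeR's test. Leaving out replicate 1, 6 were above (42.9%, against 32.9%) and 2 below (14.3%, against 32.8%) in both other libraries. The median of the mean ratios was 0.41, and 0.18 without replicate 1.

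Pou3f1, a POU-domain transcription factor of these neurons, had the highest mean ratio of the list. It was at 90.6, 40.9 and 45.2 CPM in IP and at 28.3 CPM in the input, and all 3 libraries lay above it (mean log2 ratio 0.96 ± 0.63, SD, n = 3). Its blocked edgeR adjusted p was 0.0509. Bcl11b (chromosome 12, 107910403 to 108003602, mm10), which directs subcerebral axon growth, was at 286.1, 185.7 and 183.7 CPM against 135.3 CPM. All 3 IP values of Bcl11b were above the input, and replicates 2 and 3 had almost the same ratio, 0.46 and 0.44 (mean 0.66 ± 0.36, SD, n = 3).

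Colgalt2 (chromosome 1, 152399830 to 152510695), the source of the regulatory DNA behind the tag, encodes a collagen galactosyltransferase. It was at 137.1, 85.4 and 103.5 CPM against 80.9 CPM in the input. All 3 values were above the input, but replicate 2 only just, with a log2 ratio of 0.08 and a 95% counting interval of 0.01 to 0.15. Fezf2 (chromosome 14, 12342094 to 12348189), the selector of subcerebral identity, was at 147.7, 60.1 and 81.7 CPM against 61.0 CPM. Replicate 2 of Fezf2 did not differ from the input beyond counting error (log2 ratio −0.02, interval −0.10 to 0.06), while replicates 1 and 3 were above it.

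The natriuretic peptide receptor gene Npr3 gave the most even ratios of the list, at 43.4, 42.5 and 44.8 CPM against 33.8 CPM (mean log2 ratio 0.36 ± 0.04, SD, n = 3). Fam84b and the cofactor gene Ldb2 were also above the input in all 3, with log2 ratios of 1.01, 0.28 and 0.15 and of 1.02, 0.05 and 0.17. The thyroid hormone binding protein gene Crym, Vat1l, the repressor Bcl6, Parm1, the sulfotransferase Chst8 and the sulfatase Sulf2 were between 0.81 and 1.25 in replicate 1 and between −0.14 and −0.02 in replicate 2. In replicate 3 these 6 genes ran from −0.03 for Crym to 0.47 for Chst8. Slco2a1, a prostaglandin transporter gene with few counts, was at 1.27, 0.838 and 1.20 CPM against 1.40 CPM. By counting intervals, 13 of 14 members were above the input in replicate 1, 5 in replicate 2 and 11 in replicate 3.

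**Figure D2:**
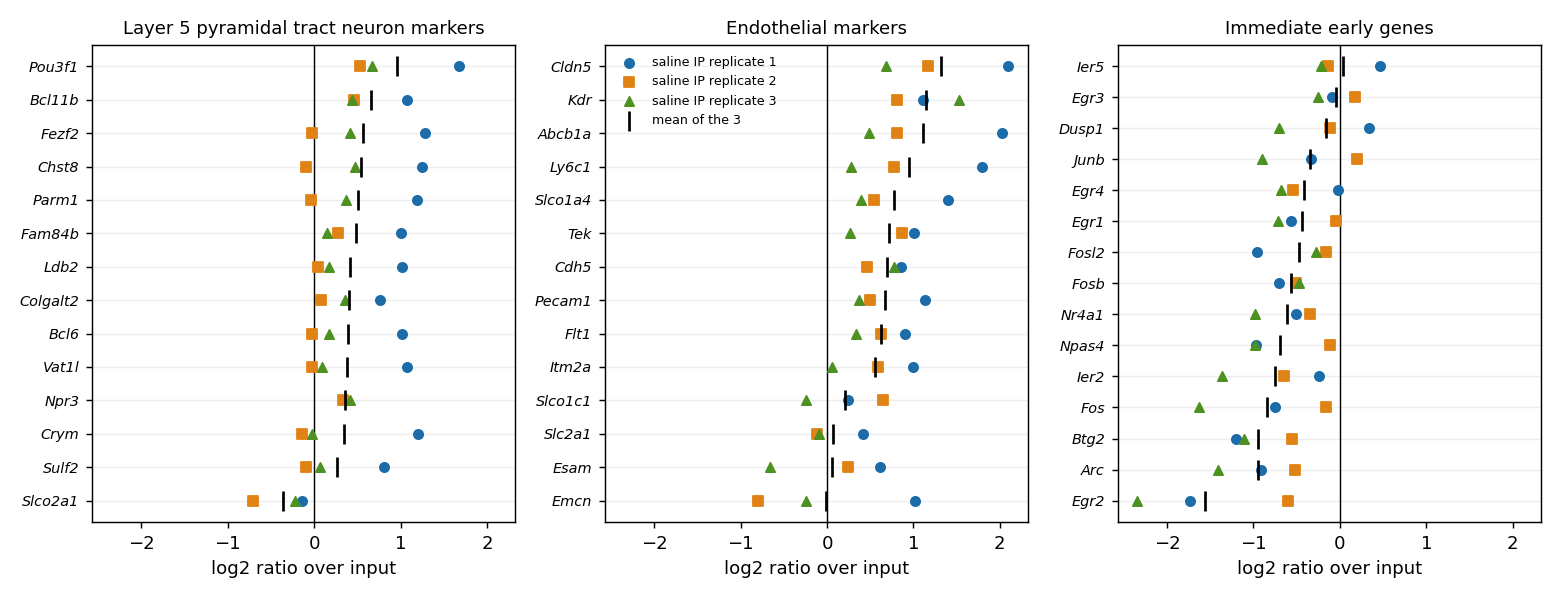
Log2 ratio over the input of every member of 3 lists in each saline IP library, with the mean of the 3 as a black tick. Layer 5 markers spread from replicate 2 near 0 to replicate 1 near 1; most endothelial markers lie right of 0 in all 3 libraries and most immediate early genes left of it.

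The tagged protein's own gene, Rpl10a, was at 2.10, 1.81 and 2.13 CPM against 1.65 CPM in the input, with log2 ratios of 0.34, 0.13 and 0.36. These rest on 109, 69, 82 and 68 counts, and each counting interval included 0, so a difference was not detectable at this depth. Reads aligning to several places were left out of gene counts, which lowers genes with pseudogene copies such as Rpl10a.

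Lists of other neurons had medians below that of the layer 5 pyramidal tract list in replicates 1 and 3. In replicate 2 most of them were higher than its −0.02. These were the thalamic (0.19), striatal (0.15), other layer 5 (0.13), general excitatory (0.07) and hippocampal (0) lists. Only layer 6 (−0.10) and interneuron (−0.12) genes were lower there, and layers 2 to 4 had the same rounded median. General excitatory markers, which the targeted neurons share, had medians of 0.24, 0.07 and 0.03, and Neurod2, a differentiation factor, was at 147.0, 146.0 and 148.3 CPM against 123.5 CPM (mean log2 ratio 0.25 ± 0.01, SD, n = 3). The 10 genes of layers 2 to 4 had medians of −0.47, −0.02 and 0.00. The upper-layer transcription factor Cux2 was at 22.0, 39.9 and 39.8 CPM against 45.3 CPM, below the input in each library. None of the 10 layer 6 genes was above the input in all 3 and 4 were below, with medians of −0.50, −0.10 and −0.16. The layer 6b gene Cplx3 was at 6.06, 9.27 and 6.65 CPM against 10.6 CPM.

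Among 5 genes of other layer 5 neurons, Etv1 had log2 ratios of 0.92, 0.02 and 0.17 and Rbp4 of 0.78, 0.37 and 0.15. Tshz2, a gene of near-projecting cells, was at 48.0 CPM in replicate 1 against 115.4, 110.7 and 109.2 CPM in replicates 2 and 3 and the input.

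Interneuron genes had medians of −0.78, −0.12 and −0.10, and 5 of 14 were below the input in all 3 libraries, with 0 above in all 3. The neuropeptide gene Sst was at 21.8, 59.7 and 46.8 CPM against 66.9 CPM, and the transcription factor Lhx6 at 5.36, 16.9 and 17.5 CPM against 22.2 CPM. In both genes replicate 1 was lowest and replicates 2 and 3 were also below the input. In replicate 2, however, 6 members were above the input and 8 below. Among those above were Gad2 (ratios of −0.6, 0.22 and 0.02), Gad1 (−0.34, 0.28 and −0.09) and Calb2 (−0.65, 0.56 and −0.12). Gad2 was the most abundant of the list, at 457.2 CPM in the input. The parvalbumin gene Pvalb lay close to the input throughout, at 48.4, 39.6 and 44.2 CPM against 43.7 CPM. The glycoprotein gene Reln differed in sign between libraries, with ratios of 0.84, −0.14 and 0.22.

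Striatal projection neuron genes had medians of −0.51, 0.15 and −0.05. Drd2 stood at 2.50 CPM in replicate 1 but at 8.20 and 7.28 CPM in replicates 2 and 3, above the 5.47 CPM of the input. Rgs9 was at 14.1, 91.0 and 82.8 CPM against 84.2 CPM, so only replicate 1 was far below. Actn2 was the 1 member of 14 above the input in all 3 libraries, at 4.23, 2.83 and 3.69 CPM against 2.32 CPM.

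Glial lists lay below the input in replicate 1, less so in replicate 3, and near it in replicate 2. Astrocyte genes had medians of −1.43, −0.10 and −0.34, and 10 of 13 were below in all 3 libraries against 17.6% of all genes. The same number, 10 of 13, was below in both replicates 2 and 3 alone, where 32.8% of all genes were. The glutamate transporter Slc1a3 was at 26.9, 79.3 and 64.3 CPM against 89.0 CPM. All 3 of its IP values were below the input, replicate 2 by the least. The receptor gene Fgfr3 (3.94, 13.7 and 8.16 CPM against 14.6) and the gap junction gene Gjb6 (3.59, 10.3 and 9.67 CPM against 12.8) were also below the input in each library. Aldh1l1, an enzyme used as an astrocyte marker, had the mean ratio nearest 0, at 11.6, 12.6 and 11.4 CPM against 13 CPM. The members not below in all 3 were Slc1a2 (ratios of −1.59, 0.05 and 0.15), Aqp4 (−1.43, 0.01 and −0.19) and Gja1 (−0.95, 0.28 and −0.34). Slc1a2 was the most abundant of the list, at 1832.8 CPM in the input.

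Oligodendrocyte genes had medians of −1.13, −0.02 and −0.22, with 6 of 12 below the input in all 3 and 0 above in all 3. The myelin genes Mobp (29.3, 151.0 and 142.2 CPM against 165.1), Mog (6.54, 18.8 and 13 against 21.5) and Mbp (161.8, 270.1 and 248.6 against 307.1) were below in each library. Oligodendrocyte precursors had medians of −0.94, −0.05 and −0.31. The receptor gene Gpr17 was at 4.94, 10.6 and 9.25 CPM against 13.7 CPM.

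Microglial genes had medians of −1.51, −0.15 and −0.36, and 7 of the 13 that passed the filter were below the input in all 3 libraries. The complement gene C1qa was at 0.192, 1.57 and 0.520 CPM against 1.74 CPM, and Tmem119 at 0.615, 3.22 and 1.61 CPM against 2.95 CPM. P2ry13, a purinergic receptor gene, went the other way in replicates 2 and 3, with ratios of −0.25, 0.42 and 1.10. Trem2, which did not pass the filter, had ratios of −1.89, −0.93 and −1.24.

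**Figure D3:**
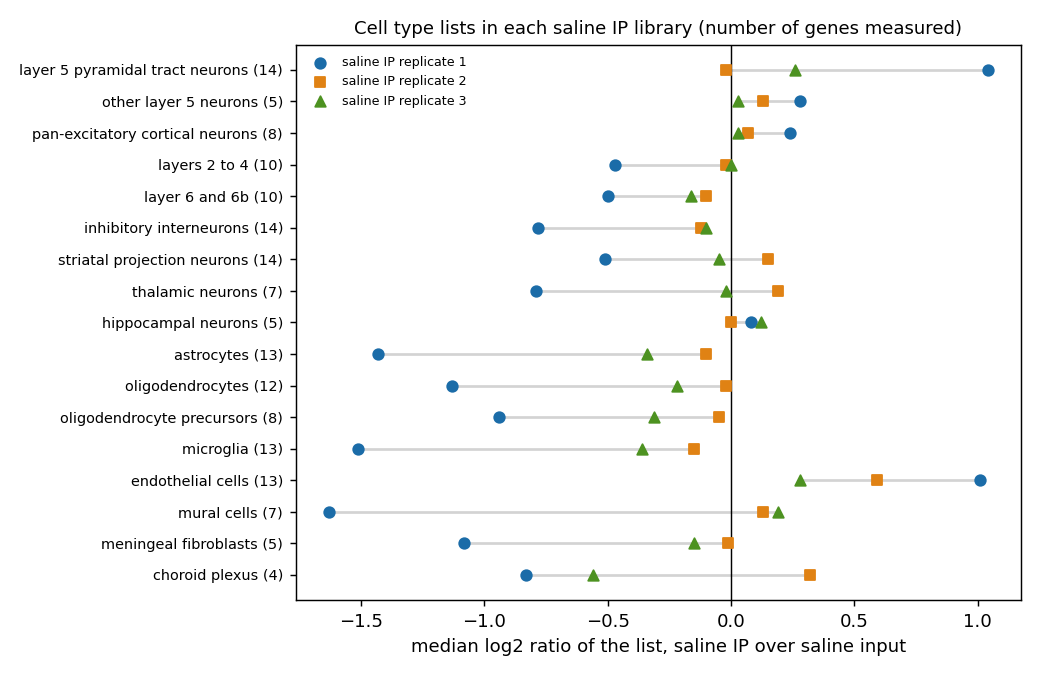
Median log2 ratio over the saline input of each cell type list in the 3 saline IP libraries, with the number of measured genes in parentheses and a grey line from the lowest to the highest library. Glial lists lie left of 0 in replicates 1 and 3 and near 0 in replicate 2, the endothelial list right of 0 in every library, and the layer 5 pyramidal tract list runs from −0.02 to 1.04.

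Endothelial genes, which mark the cells lining blood vessels, lay above the input. Their medians were 1.01, 0.59 and 0.28, and of 13 measured genes 9 were above the input in all 3 libraries and 0 below, against 18.9% above over all genes. Leaving out replicate 1, 9 were above and 2 below in both other libraries. Counting all 14 members, with the growth factor receptor Kdr that did not pass the filter, 10 were above in all 3. The tight junction gene Cldn5 (chromosome 16, 18776847 to 18778262) had the highest mean ratio, at 2.23, 1.15 and 0.806 CPM against 0.484 CPM, or 116, 44, 31 and 20 counts. All 3 IP values were above the input, but the counting interval of replicate 3 ran from −0.12 to 1.62.

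The drug efflux transporter Abcb1a was at 3.38, 1.44 and 1.14 CPM against 0.799 CPM, and the organic anion transporter Slco1a4 at 6.27, 3.43 and 3.09 CPM against 2.35 CPM. The adhesion genes Pecam1 and Cdh5 and the receptors Flt1 and Tek had ratios between 0.27 and 1.13 in every library. The exceptions were Slc2a1, Esam, Slco1c1 and Emcn, which were below the input in at least 1 library. Slc2a1, the glucose transporter of the blood-brain barrier, alone averaged over 10 CPM, at 23.7, 16.3 and 16.6 CPM against 17.7 CPM (mean log2 ratio 0.07 ± 0.30, SD, n = 3). By counting intervals, 13 of 14 members were above the input in replicate 1, 8 in replicate 2 and 2 in replicate 3.

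Over the same input, the endothelial list had medians of 0.64, 0.02 and −0.57 in the cocaine IP libraries and of 1.28, 0.28 and −0.10 in the yoked ones. Mural cells share the vessel wall with endothelial cells. The 7 mural genes measured had medians of −1.63, 0.13 and 0.19 and 0 were above the input in all 3. The pericyte gene Rgs5 was at 3.23, 8.72 and 9.25 CPM against 7.99 CPM, so replicate 1 alone was low. The matrix protein gene Vtn was at 1.15, 4.58 and 5.33 CPM against 5.88 CPM. Of 4 red blood cell genes only the globin gene Hbb-bs passed the filter, and it was at 0.711, 2.44 and 1.77 CPM against 4.53 CPM. Under the filter, the globin genes Hba-a2 (ratios of −2.11, −0.96 and −1.74) and Hbb-b2 (−3.3, −1.06 and −2.32) were also below the input in each library. Alas2, the enzyme of haem synthesis in red cells, likewise under the filter, had ratios of −1.18, 0.34 and 0.29.

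Choroid plexus genes stood out in single libraries. Ttr, the transthyretin gene that this tissue expresses at very high levels, had 804 counts in replicate 2 against 5 in replicate 1, 3 in replicate 3 and 39 in the input. On the CPM scale replicate 2 was at 21.1 and the input at 0.944. In replicate 2 Clic6, another gene of this tissue, was at 3.51 CPM against 3.29 CPM in the input. Kl was at 2.88 CPM there against 1.96 CPM, and Kcne2 at 0.0524 CPM against 0.194 CPM. Otx2, on the same list but under the filter, had 33 counts in replicate 1. It had 2 counts in replicate 2 and 0 in replicate 3 and the input.

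Immediate early genes, which neurons transcribe within minutes of activity, lay below the input as a group in every library. Their medians were −0.56, −0.16 and −0.90, so that here replicate 3 and not replicate 1 was the lowest. Of 15 genes, 11 were below the input in all 3 libraries and 0 above, against 17.6% below over all genes. Leaving out replicate 1, 13 of 15 were below in both other libraries, against 32.8% of all genes, and the median of the mean ratios was −0.56 with and −0.55 without replicate 1. None passed edgeR's test. With the replicate block Arc alone did (log2 fold change −0.95 ± 0.18 SE, edgeR adjusted p = 0.0422), and Egr2 had an adjusted p of 0.0677.

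The promoters of 3 of these genes are printed because most of the list lay on 1 side of the input and many of its members carry the half-site of the cAMP response element, TGACG. They are RefSeq sequences on GRCm38.p6, 5′ to 3′ on the gene's strand, from 250 bases before to 50 after the start, in lower case with each TGACG or its reverse complement CGTCA in capitals. For Nr4a1 the start is one that lies inside the annotated gene.
Fos promoter, chr12:85473640-85473939, plus strand: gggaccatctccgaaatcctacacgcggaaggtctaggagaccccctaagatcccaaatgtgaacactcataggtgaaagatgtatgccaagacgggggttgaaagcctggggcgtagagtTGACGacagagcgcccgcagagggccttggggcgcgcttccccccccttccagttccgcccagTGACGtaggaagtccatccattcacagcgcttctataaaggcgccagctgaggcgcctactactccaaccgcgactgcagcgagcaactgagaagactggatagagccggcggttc
Btg2 promoter, chr1:134079106-134079405, minus strand: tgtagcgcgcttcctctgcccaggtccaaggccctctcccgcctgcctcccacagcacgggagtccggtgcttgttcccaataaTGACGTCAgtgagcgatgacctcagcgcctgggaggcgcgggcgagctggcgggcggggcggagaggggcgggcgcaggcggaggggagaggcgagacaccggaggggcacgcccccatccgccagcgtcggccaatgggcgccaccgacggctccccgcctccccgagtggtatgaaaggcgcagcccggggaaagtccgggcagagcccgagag
Nr4a1 promoter, chr15:101266596-101266895, plus strand: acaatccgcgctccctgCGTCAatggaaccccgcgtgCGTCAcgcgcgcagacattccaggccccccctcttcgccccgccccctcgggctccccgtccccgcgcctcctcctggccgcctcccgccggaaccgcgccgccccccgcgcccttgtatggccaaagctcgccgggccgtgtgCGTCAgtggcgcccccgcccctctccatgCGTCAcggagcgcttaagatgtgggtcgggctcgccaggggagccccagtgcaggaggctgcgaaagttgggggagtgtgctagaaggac
The Fos promoter holds 2 matches and that of Nr4a1 holds 4. In Btg2 the 2 matches overlap on opposite strands and form the palindrome TGACGTCA. Of the 15 genes on the list, 11 had an entry in the promoter table, and 9 of these 11 (81.8%) held the half-site on either strand, against 6228 of 27025 genes of the table (23.0%). A match is a run of letters and does not show that a factor binds there. Whether the half-site goes with the ratios over the input was not tested.

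Egr2 (chromosome 10, 67535475 to 67542188), a zinc finger transcription factor, had the lowest mean ratio. It was at 7.55, 16.6 and 4.91 CPM in IP against 25.2 CPM in the input, below it in all 3 libraries (mean log2 ratio −1.56 ± 0.89, SD, n = 3). Arc, which encodes a synaptic capsid-forming protein and whose messenger RNA travels into dendrites, was at 41.9, 55.2 and 29.8 CPM against 79.0 CPM. Btg2, an antiproliferative gene, was at 13.9, 21.7 and 14.8 CPM against 31.9 CPM. In Egr2, Arc and Btg2 replicate 2 was nearest to the input, and no IP value reached it.

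Fos (chromosome 12, 85473890 to 85477273), the AP-1 subunit used as a marker of neuronal activity, was at 12.3, 18.5 and 6.68 CPM against 20.7 CPM. The nuclear receptor Nr4a1 was at 46.7, 52.6 and 33.8 CPM against 66.6 CPM, and Fosb at 10.6, 12.2 and 12.5 CPM against 17.3 CPM. Fosb had nearly the same ratio in each library (mean log2 ratio −0.56 ± 0.13, SD, n = 3), whereas Fos ranged from −0.16 to −1.63. Egr1, another zinc finger factor, was at 575.8, 825.4 and 514.4 CPM against 848.7 CPM. The neuron-specific factor Npas4 was at 6.63, 12 and 6.58 CPM against 13 CPM, and Ier2, Egr4 and Fosl2 were also below the input in each library.

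The members not below in all 3 were Ier5 (ratios of 0.47, −0.14 and −0.22), Egr3 (−0.09, 0.18 and −0.25), Dusp1 (0.34, −0.12 and −0.70) and Junb (−0.33, 0.20 and −0.90). In replicate 3 all 15 ratios were negative. Over the same input, the list had medians of −0.62, 0.00 and −0.45 in cocaine IP and of −0.41, 0.02 and −0.71 in yoked IP, and of −0.61 in the unbound library.

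Long noncoding RNAs that stay in the nucleus separated replicate 1 from the rest. The median of 10 such genes was −2.55 in replicate 1, 0.03 in replicate 2 and 0.04 in replicate 3. Malat1 (chromosome 19, 5795690 to 5802672), which sits in nuclear speckles, was at 216.2, 3544.1 and 4328.6 CPM against 3939.7 CPM. Neat1, the scaffold of paraspeckles on the same chromosome, was at 1.85 CPM in replicate 1 and 77.4 CPM in the input, with log2 ratios of −5.36, 0.37 and 0.37. Kcnq1ot1, an imprinted antisense RNA, was at 1.63, 63.0 and 61.0 CPM against 50.1 CPM. In these genes replicate 1 was far below the input, while replicates 2 and 3 were above it except for Malat1 in replicate 2, with a log2 ratio of −0.15. The share of reads outside annotated genes, 7.29% in replicate 1 against 13.3% in the input, moved with them, and its part in the result was not tested. Without replicate 1 the median of the mean ratios went from −0.86 to 0.07.

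Host genes of small nucleolar RNAs are noncoding RNAs that are spliced and can be exported to ribosomes. The 6 measured on this list had medians of 0.72, 0.08 and 0.10. Throughout, 3 were above the input (50%, against 18.9% of all genes) and 0 below. Snhg11 and Snhg14, also named as host genes, were counted on the nuclear list above. Their ratios were −1.03, 0.02 and −0.20 and −1.45, 0.41 and −0.12, so the contrast of the 2 lists depends partly on where they were placed. Snhg3 was at 13, 9.45 and 6.21 CPM against 4.53 CPM (mean log2 ratio 1.01 ± 0.53, SD, n = 3). Gas5, whose transcript carries a terminal oligopyrimidine tract, was at 132.6, 83.1 and 79.1 CPM against 73.6 CPM. By annotated type, 9.89% of 12073 protein-coding genes were at least 2-fold below the input in replicate 1, against 22.7% of 119 long intergenic noncoding RNAs and 21.2% of 85 antisense genes. The counting's strand setting is not stated, so antisense genes may share reads with their partners.

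Ion channel and receptor genes of the neuronal surface were mixed by family. Of 15 GABA receptor genes, 8 were above the input in all 3 libraries and 0 below (6 and 1 with library totals), with medians of 0.50, 0.14 and 0.05. The subunit Gabrb2 was at 403.9, 310.3 and 294.3 CPM against 263.5 CPM. Of 23 glutamate receptor genes, 7 were above (30.4%, against 18.9% of all genes) and 2 below (8.7%, against 17.6%) in all 3. With library totals 6 were above and 4 below. Grid1, an orphan delta receptor, was at 14.6, 11.7 and 12.3 CPM against 8.30 CPM and was above in each library (mean log2 ratio 0.62 ± 0.17, SD, n = 3). The AMPA receptor subunit Gria2 was at 819.6, 466.2 and 484.4 CPM against 412.6 CPM.

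Of 58 potassium and HCN channel genes, 11 were above (19%) and 12 below (20.7%) the input in all 3, or 8 and 16 with library totals. The first 2 shares are near the 18.9% and 17.6% of all genes. The glial channel Kcnj10 was at 9.07, 37.8 and 34 CPM against 41.9 CPM. Among voltage-gated sodium and calcium channels the sodium channel Scn1a was at 226.8, 135.7 and 140.0 CPM against 120.2 CPM. Of these 32 genes, 10 were above (31.2%) and 5 below (15.6%) in all 3, or 7 and 6 with library totals.

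The cytoskeletal and secretory genes stood mostly above the input in replicate 1 alone. Tubulins and neurofilaments had medians of 0.75, −0.06 and −0.04. The tubulin gene Tuba1a was at 2182.4, 1345.0 and 916.0 CPM against 902.4 CPM, and the neurofilament gene Nefm at 800.0, 406.3 and 417.9 CPM against 354.4 CPM. Neuropeptide and granule genes had medians of 0.64, 0.08 and −0.11. The peptide gene Adcyap1 was at 49.4 CPM in replicate 1 and at 16.8, 17.6 and 15.9 CPM in replicates 2 and 3 and the input. Cartpt was the 1 of 15 below the input in all 3, at 3.08, 3.22 and 3.04 CPM against 4.75 CPM.

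Genes for the machinery of energy and protein synthesis followed the same pattern. Respiratory chain and ATP synthase genes had medians of 0.73, −0.16 and 0.06, and 12 of 74 were above the input in all 3 with 1 below. Cox6c, a subunit of complex IV, was at 431.0, 216.5 and 185.4 CPM against 160.1 CPM, and the exception Cox6a2, the muscle-type subunit, was at 1.29, 2.20 and 2.31 CPM against 4.07 CPM. Mitochondrial ribosomal proteins had medians of 0.55, −0.12 and 0.04 and cytosolic ones of 0.43, −0.18 and 0.02. For both kinds of ribosomal protein and for the respiratory chain, the share above the input in all 3 (13 of 75, 10 of 73 and 12 of 74) was near or under the 18.9% of all genes. Endoplasmic reticulum folding genes had medians of 0.54, 0.03 and 0.02. Of 17, 6 were above (35.3%, against 18.9% of all genes) and 1 below (5.88%, against 17.6%) in all 3. With library totals 4 were above and 2 below. The list was led by the chaperones Dnajb9 (37.3, 23.1 and 21.6 CPM against 18.5) and Hsp90b1 (521.5, 302.2 and 258.3 against 244.1).

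Of 55 splicing and RNA-binding factors, 22 were above the input in all 3 and 3 below, but with library totals 9 were above and 13 below, so this direction depends on the scaling. The neuronal RNA-binding protein gene Elavl4 was at 332.6, 271.6 and 235.6 CPM against 202.8 CPM. Chromatin modifier genes had medians of −0.29, 0.07 and 0.07. The methyltransferase gene Dnmt3a was at 46.0, 307.8 and 304.4 CPM against 295.4 CPM, so replicate 1 alone was low. Collagens had 5 of 15 below the input in all 3 and 0 above, among them Col6a2 at 1.04, 1.13 and 0.780 CPM against 2.15 CPM.

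**Figure D4:**
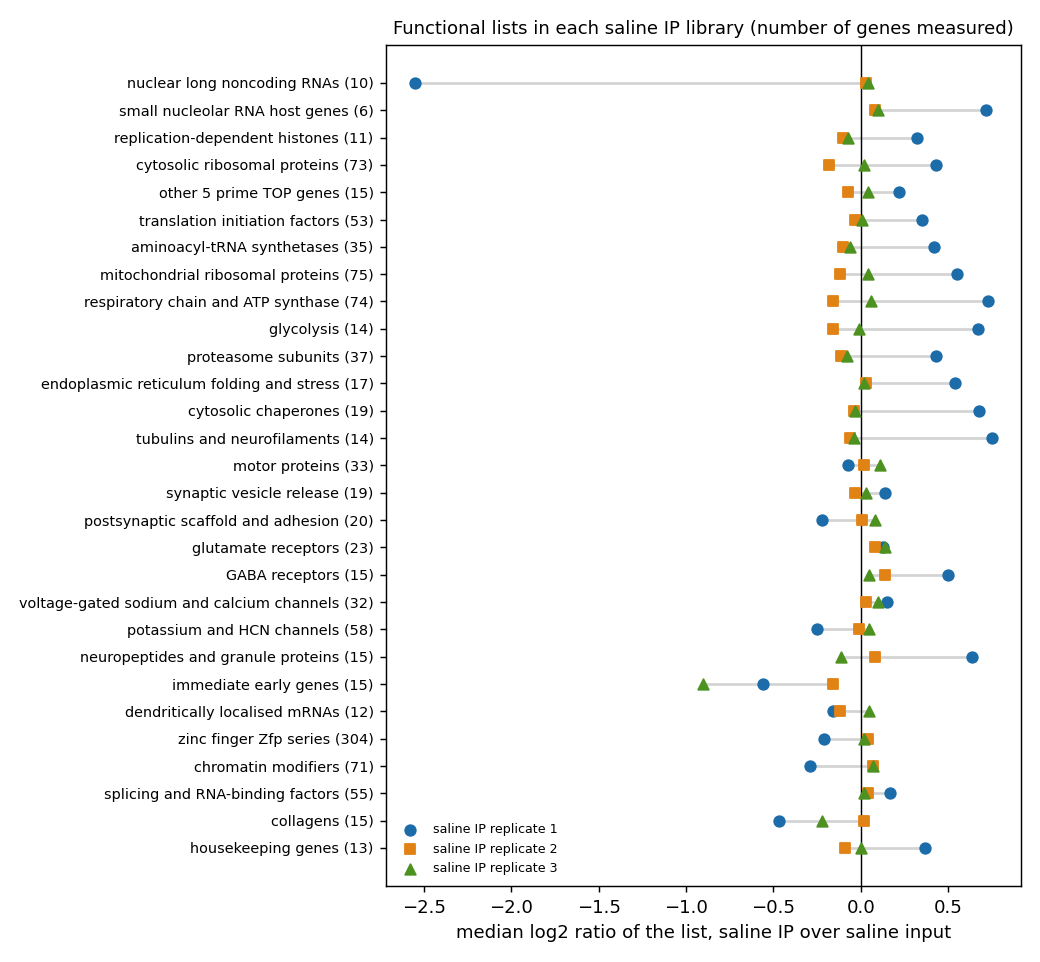
Median log2 ratio over the saline input of each functional list in the 3 saline IP libraries, with the number of measured genes in parentheses and a grey line from the lowest to the highest library. Most lists are displaced in replicate 1 alone; the immediate early genes are left of 0 in all 3, and nuclear long noncoding RNAs reach −2.55 in replicate 1.

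Ranked by the ratio nearest 0 of the 3 libraries, the 12 genes highest in all 3, among those with an established name that averaged 10 CPM or more, were Rwdd3, Akap12, Ttc33, Pou3f1, Atg10, Grid1, Magee1, Pcyox1l, Ddx21, Bcl11b, Prss12 and Ppp3cb. They were chosen by these ratios, so the values are a description. Rwdd3, a regulator of SUMO conjugation, was at 15.8, 10.4 and 13.2 CPM against 6.83 CPM. Akap12, a scaffold for protein kinase A, was at 19.0, 20.9 and 20.3 CPM against 12.7 CPM, with replicate 1 no higher than the others. Magee1 was at 544.7, 329.5 and 287.2 CPM against 204.5 CPM. The calcineurin subunit gene Ppp3cb was at 371.7, 281.7 and 295.2 CPM against 208.7 CPM, and the nucleolar helicase gene Ddx21 at 25.3, 23.6 and 24.6 CPM against 17.3 CPM. Of these 12 only Pou3f1 and Bcl11b were on the layer 5 list and only Grid1 on the glutamate receptor list. Their edgeR adjusted p was 1 without the block.

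The 12 lowest by the same ranking, which leaves out the model AK140265 described above, were Egr2, Btg2, Arc, S100a1, Meis3, Fosb, Mmaa, Rpap1, Esrra, Zfyve1, Bcan and Gpr37l1. Immediate early genes took 4 of these places. Gpr37l1, an astrocyte receptor gene, was at 6.0, 19.0 and 14.9 CPM against 24.6 CPM, and Bcan, which encodes the matrix proteoglycan brevican, at 10.2, 13.1 and 12.8 CPM against 17.2 CPM. The calcium-binding protein gene S100a1 was at 9.13, 14.3 and 12.5 CPM against 20.4 CPM. The homeobox gene Meis3 was at 14.4, 14.0 and 13.8 CPM against 20 CPM, and Esrra, a nuclear receptor that acts on mitochondrial genes, at 7.98, 10.7 and 11 CPM against 14.6 CPM. Meis3 had nearly equal ratios in the 3 libraries (mean −0.50 ± 0.03, SD, n = 3).

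Single libraries had extremes of their own, given here for genes with an established name that averaged 10 CPM or more. In replicate 1 the highest genes after Ubr3 were Yeats2, Atg7, Rnf128 and Atp6ap2. The autophagy gene Atg7 was at 422.4 CPM there and at 99.2, 91.3 and 95.6 CPM in replicates 2 and 3 and the input. Yeats2 was on opposite sides of the input in replicates 1 and 3, at 177.8, 48.0 and 19.6 CPM against 36.9 CPM. In replicate 2 the histone demethylase gene Kdm6b was highest, at 304.6 CPM against 119.9 CPM in the input and 57.6 and 148.1 CPM in replicates 1 and 3. Nexn, an actin-binding protein gene, was high in replicates 2 and 3 (28.6 and 24.0 CPM) but not in replicate 1 (13.2 CPM) or the input (14.0 CPM). Under the same limits the 5 lowest genes of replicate 3 were the immediate early genes Egr2, Fos, Arc, Btg2 and Nr4a1; the model AK140265, at −2.17, was lower than all of these but Egr2.

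Ratios also varied with properties of the transcript. Of the 13478 genes, 12442 (92.3%) had a length and a GC content in the annotation, GC being that of the longest transcript. From the shortest to the longest of 10 bins by exonic length, the median log2 ratio went from 0.39 to −0.22 in replicate 1, from −0.11 to 0.08 in replicate 2 and from 0.00 to 0.08 in replicate 3. Spearman correlations across genes, which are not independent replicates, were −0.28, 0.21 and 0.13. From the lowest to the highest of 10 bins by GC content, replicate 2 went from 0.15 to −0.16, replicate 1 from 0.18 to 0.03 and replicate 3 from 0.06 to −0.05. With the length trend removed, the median of the mean ratios was 0.40 for layer 5 pyramidal tract genes, −0.55 for astrocyte, 0.67 for endothelial and −0.56 for immediate early genes. It was 0.41, −0.54, 0.67 and −0.56 before. The median for respiratory chain genes went from 0.21 to 0.15.

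**Figure D5:**
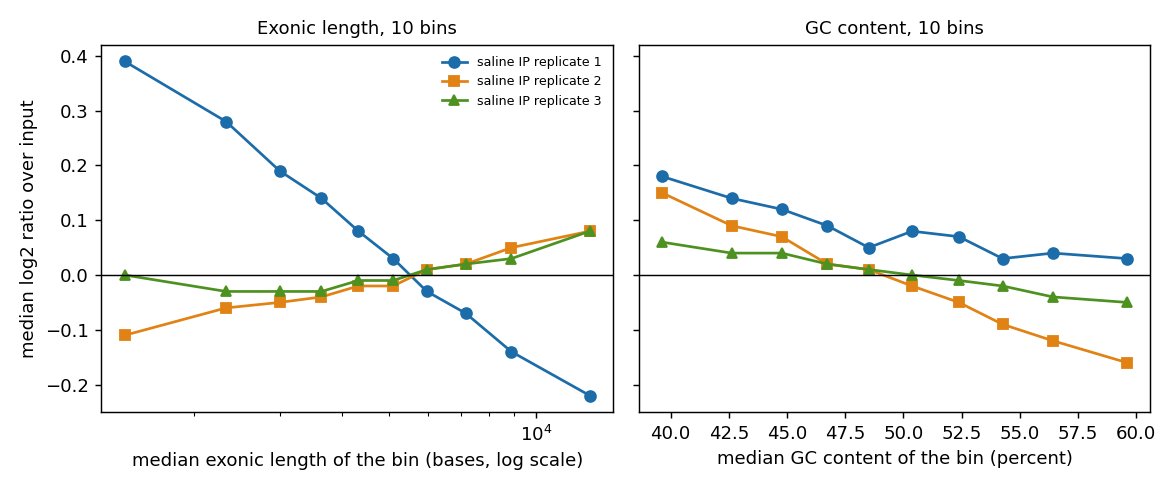
Median log2 ratio over the input of 10 bins of genes by exonic length (left, log scale) and by GC content (right) in each saline IP library. The line of replicate 1 runs down with length and those of replicates 2 and 3 slightly up; with GC content the line of replicate 2 runs down the most.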

How the data were processed

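RNA of 3 saline IP libraries and 1 saline input library was compared, with the other 7 libraries used in the test and beside single results. The authors deposited raw counts of reads per gene symbol. STAR 2.0.0e, HTSeq and the mm10 build are named in the submitters' processing notes; an HTSeq version, annotation and strand setting are not stated there. Each file holds 32537 entries, of which 6 name no gene and entered neither library sizes nor tests. Of all entries in the 4 libraries, 35.6% to 40.6% were reads aligned to several places and 1.56% to 1.86% reads over several genes. Rn45s, the ribosomal RNA precursor, took 5.00% to 6.60% of gene counts and stayed in library sizes.

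Ratios are log2 of TMM-scaled counts over the input with a prior count of 2, kept where a gene averaged 1 CPM or more over these 4 libraries. A call needs a 2-fold difference in all 3 libraries. The test was edgeR 4.0.16 (R 4.3.3), quasi-likelihood, over 11 libraries as 5 group means with Benjamini-Hochberg adjustment, with DESeq2 1.42.0 as an alternative. P-values of fits without the replicate block measure the spread among replicate IP libraries and nothing else. The input is 1 library and adds nothing to that spread, so the tests take it to vary as IP libraries do. The 3 saline IP libraries differed from each other by far more than sampling noise, and counts without molecular identifiers include PCR copies. Replicate numbers paired the 9 IP libraries, since same-numbered libraries of different treatment groups deviated together (correlations of 0.29 to 0.73 across genes), while the input carries no number. The block was therefore fitted over the IP libraries only. It takes out spread that same-numbered IP libraries share, so blocked SEs and p-values do not measure that part. Those libraries also share an index sequence, so number and index cannot be told apart in the block. Gene positions and types come from GENCODE M21 (GRCm38) and promoters from RefSeq.

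Named genes are Colgalt2, Bcl11b, Fezf2 and Rpl10a, genes past 2-fold in all 3, the 12 highest and 12 lowest by the ratio nearest 0, the 5 highest and 5 lowest of each library, and the 3 highest and 3 lowest of each list. Other list members, genes past 2-fold under 10 CPM and genes called with the block were named with their values known. The members and lists were chosen with earlier results of these data known. The computations were tested on simulated data. Alternatives were other scalings, prior counts, filters, folds, fits and left-out libraries. Some genes of the lists are not reported here.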

Additional observations from a re-analysis of the deposited data

How the results depend on the processing

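The counts of genes at least 2-fold above and below the input in all 3 libraries, 10 and 6, were 156 and 476 with no filter on low counts, 0 and 1 at a mean of at least 10 CPM, and 45 and 52 at 1.5-fold. Leaving out 1 saline IP library gave 15 to 29 above and 10 to 47 below, since fewer libraries then have to pass. They stayed within 1.5 times under the other scalings and a prior count of 0.5. With the replicate block, which pairs the IP libraries by number, edgeR called 1 gene higher and 24 lower in place of 0 and 0. Without the block it called 0 in both directions with 4 libraries only, other size factors, no filter or any saline IP library left out, at unadjusted p under 0.05 in 22 to 93 genes higher and 14 to 96 lower. The layer 5 pyramidal tract median of 0.41 was 0.18 to 0.59 with 1 saline IP library left out and 0.34 to 0.41 under the other settings. The SD between libraries is set largely by replicate 1, so it is no measure of how stable the list medians are; the nuclear noncoding median, for example, went from −0.86 to 0.07 without replicate 1. The endothelial median was 0.07 at a mean of at least 10 CPM, where 1 gene is left. Counts without replicate 1 were added after seeing the data. One input library limits every ratio, and genes near 1 CPM rest on few counts.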
